A study of Mus musculus with 2 samples.

Results

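Tumor necrosis factor superfamily ligands and receptors were measured here as 7 genes: the ligand genes Tnf, Tnfsf9, Tnfsf10 and Tnfsf15 and the receptor genes Tnfrsf9, Tnfrsf1a and Tnfrsf1b, out of 27031 genes in the table of unique molecular identifiers (UMIs). They were chosen by their measured levels across marker-defined cell types and across the 2 treatment pools, so those levels are given as a description. Most ligands of this superfamily act as trimers, at the cell surface or after shedding, on receptors that recruit adaptor proteins and lead to NF-kB activation or to cell death. Some receptors, among them 4-1BB, costimulate T cells, while the receptors of TNF itself are carried by many leukocytes. The ligand of 4-1BB is made largely by antigen-presenting cells.

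Female C57BL/6 mice aged 6 to 8 weeks carried subcutaneous MC38 colon tumors and received telmisartan at 5 mg/kg, or vehicle, by the intragastric route each day from implantation. Tumors were taken on day 13, and live CD45+ cells were sorted with Calcein AM. The sorted cells of 5 mice were pooled for each treatment and sequenced on the BD Rhapsody system. The cells of both pools shared 1 capture and were told apart by Sample Tag 1 (control) and Sample Tag 2 (telmisartan). With 1 pool for each treatment no difference between treatments was tested, and mouse-to-mouse variation cannot be told apart from treatment. All intervals are 95% intervals for counting error. Those of CPM and log2 ratios take each UMI as independent and leave out variation between cells. They are therefore too narrow where few cells hold many of the UMIs.

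After filtering, 4535 control and 4434 telmisartan cells were kept, with 41591125 and 30921742 UMIs in all and median depths of 8689 and 6357.5 UMIs per cell. Clusters were named from fixed marker lists as macrophage-like (4046 control and 3998 telmisartan cells), dendritic-like (370 and 298), T-like (72 and 114) or neutrophil-like (47 and 24). All 11 macrophage or monocyte markers had UMIs in macrophage-like cells of both pools and summed to 18535 and 18853 CPM (UMIs of a gene over all UMIs of the same cells, in parts per 1e6), with Lyz2 the most abundant. In the same cells the 10 T-cell markers summed to 14.7 and 16.6 CPM, with Trbc2 the most abundant in the control and Skap1 in the telmisartan pool. The 6 neutrophil markers summed to 33.7 and 30.9 CPM there, with Csf3r the most abundant. The 11 dendritic markers summed to 33.1 and 31.2 CPM, with Ccl22 the most abundant, and Siglech was at 0 in the telmisartan pool. The 5 fibroblast markers summed to 7.91 and 14.0 CPM. Neutrophil-like cells lacked Ly6g, 1 of the 6 neutrophil markers, in both pools. Among macrophage-like clusters, cluster 3 held the most control cells (1349 of 4046), and clusters 1 and 2 held the most telmisartan cells (1187 and 1208 of 3998). Cluster 2 was shallow, with a median of 2690 UMIs. Tnf, Tnfsf9, Tnfsf15 and Tnfrsf9 were among the 2000 variable genes that built the clusters, and Tnfsf15 was among the leading genes of cluster 1, so their levels across clusters were in part set by the clustering.

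Tnf, which encodes the cytokine TNF, stood at 119.8 CPM in control macrophage-like cells and 183 CPM in those of the telmisartan pool. The log2 ratio of telmisartan over control was 0.61 (0.56 to 0.67). Tnf was thus higher in the telmisartan pool in this class. A Tnf UMI was seen in 28.5% (27.1 to 29.9) of control and 37.6% (36.1 to 39.1) of telmisartan macrophage-like cells, although the telmisartan cells were shallower (medians of 8972 and 6463.5 UMIs). When cells were thinned to 1000 UMIs, which left out 45 control and 71 telmisartan cells with fewer, the shares were 8.72% of 4001 and 13.6% of 3927 cells. The UMIs were unevenly spread among cells. In the control pool 112 cells with 10 or more Tnf UMIs held 50.4% of the Tnf UMIs of the class, and in the telmisartan pool 109 cells held 36.4%. The largest count in a single cell was 105 in the control pool and 52 in the telmisartan pool. Without cluster 2, an alternative chosen after seeing the data, the log2 ratio was 0.35.

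Over both pools Tnf was highest in neutrophil-like cells (882 CPM), followed by macrophage-like (147), dendritic-like (66.3) and T-like cells (53.8). The intervals of dendritic-like (59.3 to 73.8 CPM) and T-like cells (39.7 to 71.3 CPM) overlapped. In the control pool alone no neighbors in that order overlapped, while in the telmisartan pool T-like cells ranked above dendritic-like cells and their intervals overlapped. The neutrophil-like value came from 122 UMIs in 71 cells, with 747 CPM in the control and 1142 CPM in the telmisartan pool (log2 ratio 0.61, 0.07 to 1.15). Only 26 of these cells had a Tnf UMI, and 1 telmisartan cell held 27 of the 54 UMIs of its pool, so the ratio rested on that cell. The shares of cells with a UMI overlapped, at 34.0% (20.9 to 49.3) and 41.7% (22.1 to 63.4). In the same neutrophil-like cells the 6 neutrophil markers summed to 14447 CPM in the control and 9034 CPM in the telmisartan pool. The macrophage or monocyte markers summed to 3568 and 2264 CPM there, and the part of these shifts in the Tnf ratio was not tested. In dendritic-like cells the pools were alike in Tnf, at 65.0 and 68.1 CPM (0.07, -0.26 to 0.39). The dendritic markers summed to 3252 CPM in the control and 2800 CPM in the telmisartan pool of these cells. Their macrophage or monocyte markers summed to 3906 and 3071 CPM. The part of these shifts in the dendritic-like ratios of the 7 genes was not tested. T-like cells had 14 control and 34 telmisartan Tnf UMIs, or 32.0 and 74.8 CPM (1.23, 0.29 to 2.24). To gauge carry-over of macrophage RNA, levels in T-like cells were set beside those of C1qa, C1qb, C1qc, Apoe, Lyz2 and Mrc1, 6 macrophage genes whose T-like levels were 20.3% to 51.0% of their macrophage-like levels over both pools. The range was 23.9% to 75.6% in the control pool and 16.8% to 35.7% in the telmisartan pool. For Tnf the share was 36.6% over both pools, 26.7% (14.6 to 44.9) in the control pool and 40.8% (28.2 to 57.1) in the telmisartan pool, and both intervals overlapped the range of the pool. The part of carry-over in the T-like level was not tested.

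Tnfsf9, the gene of 4-1BB ligand, stood at 104 CPM in control and 218 CPM in telmisartan macrophage-like cells. Its log2 ratio was 1.06 (1.00 to 1.12). Cells with a Tnfsf9 UMI made up 31.1% (29.7 to 32.6) of the control and 43.2% (41.6 to 44.7) of the telmisartan class. After thinning to 1000 UMIs the shares were 7.30% and 15.5%. More cells carried the transcript in the telmisartan pool, at matched depth as well. In neutrophil-like cells, at a median depth of 1746 UMIs, 2 of 71 cells had a Tnfsf9 UMI.

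Dendritic-like cells did not share that difference in Tnfsf9, with 238 and 239 CPM (log2 ratio 0.00, -0.17 to 0.17). In the control pool they stood well above macrophage-like cells, whereas in the telmisartan pool the intervals of the 2 classes overlapped (218 to 261 CPM against 212 to 223). The dendritic-like clusters differed among themselves. In cluster 9, led by Fscn1 and Il12b and with Ccr7 among its leading genes, Tnfsf9 was at 444 CPM in the control and 612 CPM in the telmisartan pool (0.46, 0.14 to 0.78). In cluster 6, led by Cd209a, it was at 236 and 210.0 CPM (-0.17, -0.39 to 0.04). In cluster 10, which had Xcr1 and Clec9a among its leading genes, it was at 97.5 and 109 CPM (0.16, -0.43 to 0.76). T-like cells had 54.8 and 50.6 CPM of Tnfsf9 from 24 and 23 UMIs, 52.5% and 23.3% of the macrophage-like level and within the range of the 6 carry-over genes in each pool.

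Tnfsf10, the gene of TRAIL, was sparse, with 135 UMIs among 8044 macrophage-like cells. Its levels there were 2.07 CPM in the control and 1.97 CPM in the telmisartan pool, and the interval of the log2 ratio included 0 (-0.07, -0.59 to 0.44). T-like cells held it at 52.7 CPM over both pools, against 2.18 CPM in dendritic-like cells, and no UMI was found among the 71 neutrophil-like cells, where 3 counts would be 4.23% of cells with a UMI. The upper limit there, 26.7 CPM, lay above the levels of dendritic-like and macrophage-like cells (2.18 and 2.03 CPM), so such levels were not excluded. Within T-like cells Tnfsf10 had 12 UMIs in the control and 35 in the telmisartan pool, or 27.4 and 77.1 CPM (1.49, 0.51 to 2.57). T-like cells with Cd4 or Foxp3 and without Cd8 transcripts had 40.8 and 107 CPM (1.40, 0.22 to 2.70). Those with Cd8a or Cd8b1 and without Cd4 and Foxp3 had 3 and 13 UMIs (1.58, -0.28 to 4.03). By cluster, 7 control and 32 telmisartan UMIs lay in the granzyme-rich cluster 8, and 5 and 3 lay in cluster 12, led by Foxp3. Without cluster 8 the T-like levels were 36.3 CPM in the control and 25.1 CPM in the telmisartan pool, so the higher T-like level of the telmisartan pool rested on that cluster. Over all T-like cells the 10 T-cell markers summed to 4740 CPM in the control and 6188 CPM in the telmisartan pool. The macrophage or monocyte markers summed to 6157 and 4084 CPM, and the 4 natural killer cell markers to 217 and 117 CPM. The part of these shifts in the T-like ratio of Tnfsf10 was not tested.

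Tnfsf15 encodes TL1A. In macrophage-like cells it had 194 UMIs in the control and 37 in the telmisartan pool, or 5.10 and 1.30 CPM. The ratio rested on few cells: 38 of 4046 control cells (0.939%, 0.665 to 1.29) and 29 of 3998 telmisartan cells (0.725%, 0.486 to 1.04) had a Tnfsf15 UMI, and the intervals of these shares overlapped. After thinning to 1000 UMIs the shares were 0.400% (0.229 to 0.649) and 0.102% (0.0278 to 0.261), from 16 and 4 cells, further apart though their intervals still overlapped. In the control pool 7 cells with 10 or more UMIs each held 115 of the 194, and no telmisartan cell had more than 3. All 7 cells belonged to cluster 1 and to macrophage subcluster 1. Without cells of 10 or more Tnfsf15 UMIs, an alternative chosen after the values were seen, the log2 ratio was -0.67 in place of -1.97 (-2.51 to -1.45). As the mean of macrophage subcluster ratios weighted by control cells it was -0.32, with 1 to 10 UMIs a pool in 5 of the 6 subclusters. No T-like or neutrophil-like cell had a Tnfsf15 UMI, which allows shares of cells with a UMI of up to 1.61% of 186 and 4.23% of 71 cells at 3 counts. The upper limits of its level there, 4.14 and 26.7 CPM, lay above the 3.48 CPM of macrophage-like cells over both pools. A level like that of macrophage-like cells was therefore not excluded at this depth, though in T-like cells the limit lay close to it. In dendritic-like cells 8 UMIs in the control and 2 in the telmisartan pool gave a ratio of -1.46 (-4.73 to 0.86). Transcripts of its receptor DR3, from Tnfrsf25, were at 0 in 8044 macrophage-like cells, which at their depth allows a share of cells with a UMI of up to 0.0373% and a level of up to 0.0555 CPM, and numbered 3 and 1 in T-like cells.

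**Figure D1:**
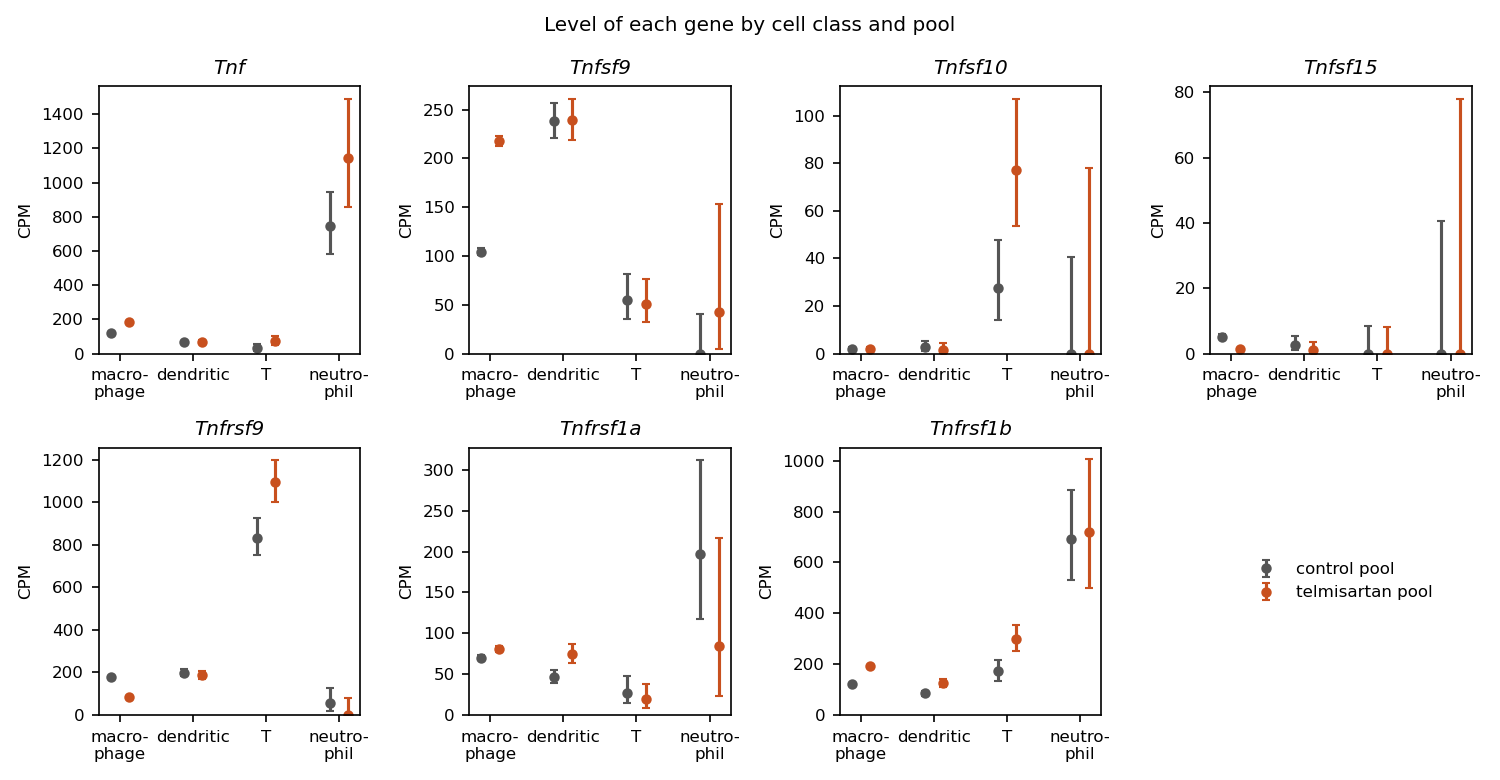
Level of each of the 7 genes in CPM, by cell class and pool. Points are sums over the cells of 1 pool, bars are exact 95% Poisson intervals for counting error, and each panel has its own scale.

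Among the receptors, Tnfrsf9, the gene of 4-1BB (CD137), stood at 178 CPM in control macrophage-like cells and 84.2 CPM in telmisartan ones. The log2 ratio was -1.08 (-1.15 to -1.01), so in this class the receptor was lower where its ligand gene Tnfsf9 was higher. Cells with a Tnfrsf9 UMI made up 30.6% (29.2 to 32.1) of control and 19.6% (18.4 to 20.9) of telmisartan macrophage-like cells. After thinning to 1000 UMIs the shares were 11.7% and 6.39%. Cells with 10 or more Tnfrsf9 UMIs numbered 228 in the control and 51 in the telmisartan pool, holding 56.7% and 30.6% of its UMIs. In neutrophil-like cells, with a median of 1746 UMIs, 5 of 71 had a UMI.

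T-like cells had the highest Tnfrsf9 level, 968 CPM over both pools, followed by dendritic-like (195), macrophage-like (138) and neutrophil-like cells (36.1), with no overlap between neighbors in that order. The direction in T-like cells was opposite to that in macrophage-like cells: 834 CPM in the control and 1096 CPM in the telmisartan pool (0.39, 0.20 to 0.59). In the same T-like cells the 10 T-cell markers summed to 4740.5 and 6188 CPM and the 11 macrophage or monocyte markers to 6157 and 4084 CPM, and the part of a smaller share of macrophage RNA in the T-like ratio of Tnfrsf9 was not tested. The shares of T-like cells with a Tnfrsf9 UMI overlapped, at 68.1% (56.0 to 78.6) and 64.0% (54.5 to 72.8). These shares are not at matched depth, with medians of 3912 UMIs in control and 2960.5 in telmisartan T-like cells. Cells of the Cd8 lineage had 285 and 792 CPM (1.47, 0.98 to 2.00). Cells of the Cd4 lineage had 811 and 1226 CPM (0.60, 0.31 to 0.88). By cluster, levels were 840.0 and 959 CPM in cluster 8 (50 control and 92 telmisartan cells; 0.19, -0.05 to 0.44), and 821 and 1479.6 CPM in cluster 12 (22 and 22 cells; 0.851, 0.502 to 1.204). The 17 T-like cells left out of both lineages, with transcripts of both lineages or of neither, held 222 of the 863 T-like Tnfrsf9 UMIs, at 2063 and 2164 CPM (0.07, -0.35 to 0.48). The T-like level was 701% of the macrophage-like level, far above the carry-over range.

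For Tnfrsf9 the dendritic-like class as a whole had 199 and 189 CPM (-0.07, -0.26 to 0.12), and its clusters differed. Cluster 9 had 785 CPM in the control and 550.1 CPM in the telmisartan pool (-0.51, -0.81 to -0.22). Cluster 6 had 134 and 174 CPM (0.38, 0.12 to 0.63). Cluster 10 had 28.1 and 25.0 CPM from 15 and 11 UMIs. Cluster 9 thus matched the macrophage-like direction, with Tnfsf9 higher and Tnfrsf9 lower in the telmisartan pool, while cluster 6 did not.

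Tnfrsf1a encodes the broadly expressed TNF receptor 1. Its levels in macrophage-like cells were 70.1 and 80.7 CPM, a log2 ratio of 0.20 (0.12 to 0.28). Among the 7 genes, Tnfrsf1a alone changed direction between the scalings tried. Counted as UMIs per cell with no scaling, Tnfrsf1a was lower in the telmisartan pool (-0.20). The median of all tested genes then lay at -0.45, a shift of -0.41 from -0.05. The telmisartan cells held fewer UMIs each, and the cause of that was not tested. The share of macrophage-like cells with a Tnfrsf1a UMI was 42.0% in the control and 38.3% in the telmisartan pool, and after thinning to 1000 UMIs it was 6.20% and 7.77%, so the order of the pools was the other way round at matched depth. Dendritic-like cells had 46.2 and 74.5 CPM (0.69, 0.35 to 1.03). Among their clusters, cluster 6 had 52.2 and 93.6 CPM (0.84, 0.46 to 1.23), cluster 10 was level at 48.7 and 47.8 CPM (-0.03, -0.93 to 0.86), and cluster 9 had 4 and 5 UMIs. Over both pools the order was neutrophil-like (159 CPM), macrophage-like (74.7), dendritic-like (57.7) and T-like (23.5). That separation held in neither pool alone: in the control pool dendritic-like and T-like cells overlapped, and in the telmisartan pool neutrophil-like (84.6 CPM from 4 UMIs), macrophage-like and dendritic-like cells overlapped. The T-like value was 39.1% of the macrophage-like one in the control and 24.5% in the telmisartan pool, within the carry-over range of each.

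Tnfrsf1b, the gene of TNF receptor 2, was at 122 CPM in control and 193 CPM in telmisartan macrophage-like cells (0.66, 0.60 to 0.72). A UMI was present in 54.8% (53.3 to 56.4) and 60.0% (58.4 to 61.5) of cells, or 12.0% and 18.7% after thinning to 1000 UMIs. It was higher in the telmisartan pool in dendritic-like cells also, with 84.7 and 125 CPM (0.56, 0.30 to 0.81). Their clusters differed: cluster 6 had 80.8 and 139 CPM (0.78, 0.47 to 1.09) and cluster 9 had 127 and 194 CPM (0.605, 0.00696 to 1.203), while cluster 10 had 69.4 and 41.0 CPM (-0.76, -1.66 to 0.09). T-like cells had 171 and 299 CPM (0.81, 0.39 to 1.23). The 2 T-cell lineages agreed in direction: 149 and 267 CPM in Cd8-lineage cells (0.84, 0.11 to 1.62) and 199 and 361 CPM in Cd4-lineage cells (0.86, 0.30 to 1.43). The marker sums of T-like and dendritic-like cells given above also differed between the pools, and their part in these Tnfrsf1b ratios was not tested. Neutrophil-like cells had the highest level but no difference beyond counting error, with 692 and 719 CPM (0.06, -0.59 to 0.68). The order over both pools was neutrophil-like (701 CPM), T-like (237), macrophage-like (152) and dendritic-like (101), again with no overlap between neighbors. At 155% of the macrophage-like level, the T-like value lay above the carry-over range.

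Macrophage-like cells clustered again on their own gave 6 subclusters, each named by its leading genes with superfamily genes left out. These were subclusters 1 (Dcstamp, Lilra6, Gm5483), 2 (Atp6v0d2, Gas6, Ms4a14), 3 (Ifit3, Ifit1bl1, Ifit2), 4 (Top2a, Ccna2, Pclaf), 5 (Serpinb2, Gipr, Il6) and 6 (Serpina3g, Iigp1, Calhm6). Tnfsf9 was higher in the telmisartan pool in all 6, from 0.38 (0.23 to 0.53) in subcluster 5 to 1.35 (1.08 to 1.62) in subcluster 3. Tnfrsf1b was higher in 5 of 6, and its interval included 0 in subcluster 6 (-0.04, -0.32 to 0.24). Tnfrsf9 was lower in 5 of 6, most in subcluster 1 (262 and 94.0 CPM; -1.48, -1.59 to -1.37). In subcluster 2 the Tnfrsf9 levels were equal, at 63.4 and 63.6 CPM.

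Tnf was higher in the telmisartan pool in 4 of the 6 subclusters. It was highest in subcluster 5, with 333 and 515 CPM (0.63, 0.50 to 0.76), and the widest gap lay in subcluster 2, with 71.4 and 168 CPM (1.23, 1.08 to 1.39). In subcluster 1, the largest, the Tnf levels were 136 and 125 CPM (-0.11, -0.22 to -0.01), where 1 control cell held 105 of the 2008 control UMIs. The share of cells with a Tnf UMI there was 26.2% in the control and 30.7% in the telmisartan pool (7.29% and 9.33% after thinning to 1000 UMIs), the other way round from the level. Other groupings of macrophage-like cells gave wider gaps in that direction of the level. In the clustering of all cells Tnf was at 249 and 171 CPM in cluster 1 (-0.54, -0.64 to -0.45) and at 114 and 42.4 CPM in cluster 7 (-1.42, -1.92 to -0.96). In subcluster 4 the interval of Tnf included 0 (0.16, -0.02 to 0.33). The mean of the subcluster ratios weighted by control cells, which holds the composition of the class, was 0.45 for Tnf, 0.97 for Tnfsf9, -0.32 for Tnfsf15, -0.93 for Tnfrsf9, 0.24 for Tnfrsf1a and 0.45 for Tnfrsf1b.

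Subcluster 5 had the highest level of Tnf, Tnfsf9, Tnfrsf9 and Tnfrsf1b over both pools, without overlap with the next subcluster. Tnfsf10 was highest over both pools in subcluster 3 (11.1 CPM), followed by subcluster 6 (4.86 CPM). In subcluster 3 it was at 16.7 CPM in the control and 8.27 CPM in the telmisartan pool (-1.01, -1.91 to -0.12), and in the telmisartan pool its interval overlapped that of subcluster 6 (5.99 CPM). Tnfrsf1a ranged from 69.7 CPM in subcluster 1 to 101 CPM in subcluster 6. Of the 231 macrophage-like Tnfsf15 UMIs, 194 lay in subcluster 1, with 183 in the control and 11 in the telmisartan pool (-3.32, -4.35 to -2.45). In each of the other 5 subclusters it had 1 to 10 UMIs in a pool, and all 5 intervals included 0. With superfamily genes taken out of the variable genes, 7 subclusters arose. Tnfsf9 was then higher in the telmisartan pool in all 7, Tnfrsf9 was lower in 6 with 1 interval including 0, and Tnf was higher in 5. In the other 2 Tnf was lower, with 264 and 180.0 CPM (-0.55, -0.65 to -0.46) and with 120.2 and 52.0 CPM (-1.21, -1.64 to -0.80).

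**Figure D2:**
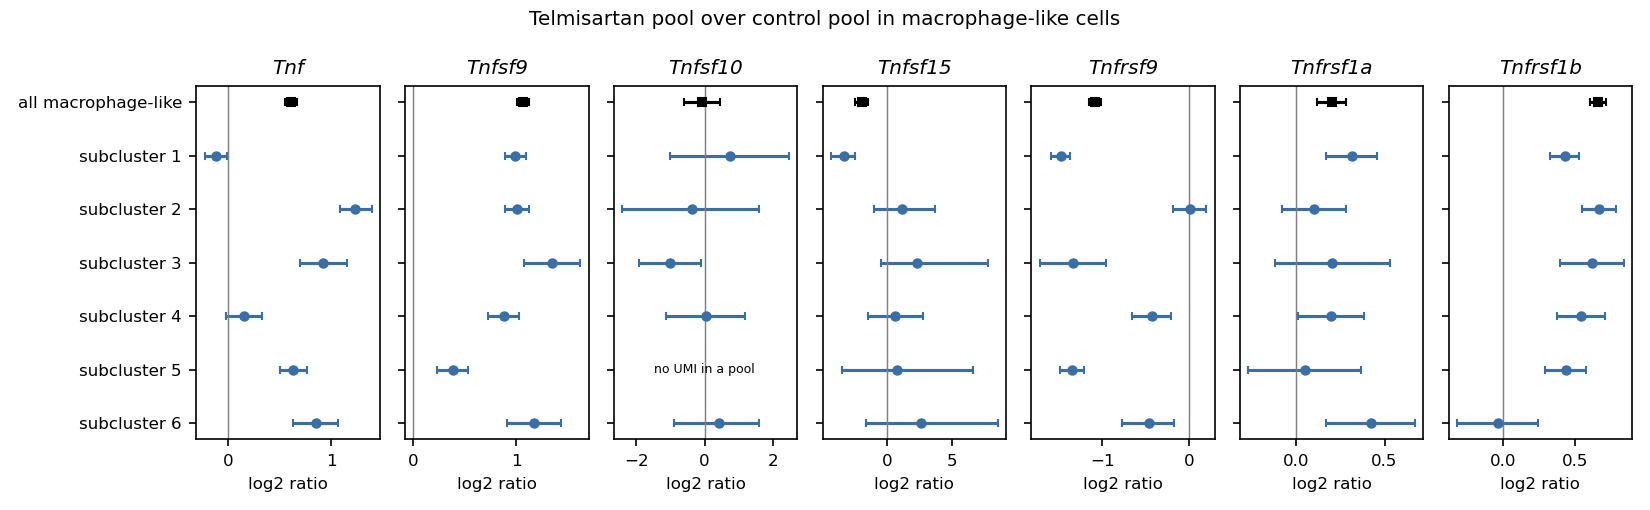
Log2 ratio of the telmisartan over the control pool for each of the 7 genes, in all macrophage-like cells (squares) and in each of 6 macrophage subclusters (circles). Bars are exact conditional binomial 95% intervals for counting error, and horizontal scales differ between panels.

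Of 11073 genes with at least 100 UMIs in macrophage-like cells, 4.81% were at least 1.5-fold higher and 2.23% at least 1.5-fold lower in the telmisartan pool, and beside these shares 3 of the 7 genes were past that fold upward (Tnf, Tnfsf9 and Tnfrsf1b) and 2 downward (Tnfsf15 and Tnfrsf9). All 7 reached the minimum of 100 UMIs. Nothing follows from this count, since the same contrast entered the choice of genes. In dendritic-like cells, where 5880 genes reached the minimum, 3.67% were at least 1.5-fold higher and 3.55% at least 1.5-fold lower. There 5 of the 7 genes reached the minimum, 1 was past the fold upward (Tnfrsf1a) and 0 downward.

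The other genes of the superfamily and its pathway were counted at the same fold, beside the 4.81% of all tested genes past it upward and 2.23% downward. No list was tested, and the list genes were chosen with earlier results of these data known, so nothing follows from the counts. Of 14 further ligand genes, 4 reached 100 UMIs in macrophage-like cells. Tnfsf14 was higher in the telmisartan pool, with 7.59 and 12.0 CPM (0.66, 0.43 to 0.89), Tnfsf12 was level (85.3 and 86.7 CPM), Tnfsf8 had 10.9 and 9.31 CPM (-0.22), and Tnfsf13b was lower, with 16.5 and 9.24 CPM (-0.84, -1.05 to -0.63). Of these 4, 1 was past 1.5-fold upward and 1 downward, and their median log2 ratio was -0.10. Of 25 further receptor genes, 14 reached the minimum, 2 of them past 1.5-fold upward and 0 downward, with a median log2 ratio of 0.09 beside -0.05 over all tested genes. Those 2 were Tnfrsf12a and Tnfrsf8. Among receptors with at least 200 UMIs the highest ratios were in Tnfrsf12a (0.98, 0.81 to 1.16), Tnfrsf26 (0.50) and Tnfrsf23 (0.18). The lowest were in Relt (-0.43), Tnfrsf13b (-0.40) and Tnfrsf22 (-0.40).

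Genes that act below the receptors were measured for the same cells. All 29 signalling and processing genes reached the minimum, 5 past 1.5-fold upward and 0 downward (4.81% and 2.23% of all tested genes), with a median of 0.06. Traf1, an adaptor of 4-1BB and TNF receptor 2, was at 39.5 and 74.0 CPM (0.91, 0.81 to 1.00), followed by Relb (0.68) and Traf3 (0.64). The lowest ratios were in Ikbkg (-0.31), Zfp36 (-0.26), whose product destabilizes Tnf mRNA, and Rhbdf2 (-0.18), whose product assists shedding of TNF. All 18 genes that respond to NF-kB and TNF reached the minimum as well. Of these, 6 were past 1.5-fold upward and 0 downward beside the same shares, with a median log2 ratio of 0.33. Those shares are no matched background, since the median level was 321 CPM for the 18 genes and 22.7 CPM over all tested genes. Among the 18 genes Nfkbie was at 103 and 266 CPM (1.36, 1.31 to 1.42), Cxcl1 at 398 and 880 CPM (1.14) and Il6 at 18.7 and 41.0 CPM (1.13). The lowest were Vcam1 (-0.16), Csf1 (-0.09) and Cxcl10 (-0.04).

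**Figure D3:**
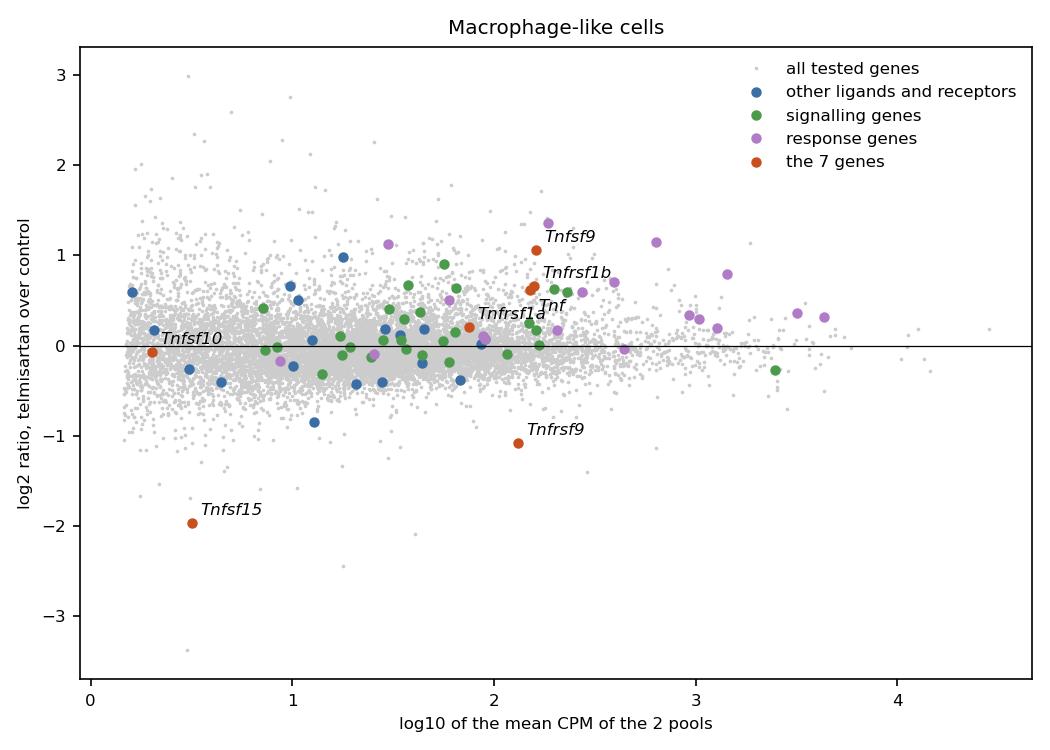
Log2 ratio of the telmisartan over the control pool against mean level for all genes with at least 100 UMIs in macrophage-like cells (gray), with the 7 genes, the other ligands and receptors, the signalling genes and the response genes in color. Each pool is 1 sample.

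Levels were also followed over 24 sums of cells, each the cells of 1 cluster in 1 pool. All sums shared 1 capture, and the 2 sums of a cluster shared its cell type, so the correlations are descriptive. The genes nearest to Tnf were Irak2 (r = 0.922), Sgms2 (0.917) and Serpinb2 (0.907). Tnfsf9 ran with Filip1l (0.932), Hax1 (0.928) and Hcfc1r1 (0.910), and Tnfrsf9 with Ccser2 (0.898), Cblb (0.893) and Paip2 (0.890). Tnfsf9 was at 0 in the control sum of neutrophil-like cells, which held 91089 UMIs in all. Tnfrsf9 was at 0 in the telmisartan sum of neutrophil-like cells, which held 47267. The weight of these shallow sums in each r was not tested. Tnfrsf1a ran with Ccr1 (0.920), Emilin2 (0.910) and Sdcbp (0.906). Tnfrsf1b ran with Znrf1 (0.904), Pik3ca (0.896) and Tlcd2 (0.890). For Tnfsf15 the nearest genes reached 0.664 (Gpalpp1), 0.637 (Ereg) and 0.636 (Gm48065), and Tnfsf10 had too few UMIs (193) for this comparison. The sum of control cells of cluster 1 held 173 Tnfsf15 UMIs, and no other sum held more than 13. Among pairs of the 7 genes, where Tnfsf10 was kept despite its few UMIs, the highest r was 0.651, between Tnf and Tnfrsf1a. The lowest was -0.608, between Tnfrsf9 and Tnfrsf1a. The ligand and receptor pair Tnfsf9 and Tnfrsf9 had an r of 0.195.

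Several of the 7 genes lie beside relatives in the genome (GRCm38, GENCODE M21). Tnf, at chr17:35199381-35202007, lies 1.16 kb from Lta and 3.06 kb from Ltb, yet in macrophage-like cells Lta had 24 control and 3 telmisartan UMIs and Ltb had 7 and 5, against 4560 and 5202 of Tnf. Tnfsf9, at chr17:57105325-57107757, is followed by Cd70 at 38.2 kb and Tnfsf14 at 81.7 kb. Of these 3 neighbors, Tnfsf9 and Tnfsf14 were both higher in the telmisartan pool, and Cd70 had 4 and 2 UMIs. Tnfsf15, at chr4:63727084-63745113, lies 86.2 kb from Tnfsf8, whose interval included 0 (-0.22, -0.45 to 0.00). Tnfrsf1b, at chr4:145213463-145246870, lies 20.3 kb from Tnfrsf8, which had 49 and 55 UMIs (0.59, 0.01 to 1.18). Tnfrsf1a, at chr6:125349362-125362484, lies 35.5 kb from Ltbr (0.11, -0.01 to 0.24). Tnfrsf9, at chr4:150914562-150946102, and Tnfsf10, at chr3:27317028-27342427, had no relative within 100 kb.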

How the data were processed

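The authors deposited UMI counts per cell and gene and Sample Tag reads per cell, made per the file headers with the BD Rhapsody WTA pipeline 1.11 on GRCm38 with GENCODE M19. The 20726 cells were the same in both tables. A cell belonged to the pool whose tag had at least 75% of at least 10 tag reads. Cells with 150 to 5000 genes and at most 20% mitochondrial UMIs were kept (5078 of 8738 control and 4833 of 10222 telmisartan cells), and 942 with the highest Scrublet scores (scanpy 1.11.5) were removed, the number predicted from tag multiplets. Seurat 5.3.0 in R 4.3.3 normalized the cells, took 2000 variable genes, 30 principal components and 20 neighbors, and clustered at resolution 0.5 (0.4 within macrophage-like cells). A cluster took a class name with at least 3 of its markers at 10 or more UMIs, in 10% of its cells and at 4 times the level of all other cells, and was otherwise macrophage-like if at least 3 macrophage markers met the first 2 of these limits.

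CPM are UMIs over all UMIs of the same cells. Intervals are exact Poisson (CPM), Clopper-Pearson (shares) and conditional binomial (log2 ratios) intervals at 95%, from scipy 1.17.1, numpy 2.4.6 and pandas 2.3.3 in Python 3.11.15. No test was made, since each group is 1 pooled sample. The calculation of the ratio and its interval was checked on simulated pool sums drawn with counting error only. That check cannot tell how the intervals hold where few cells hold many UMIs. The 4 gene lists hold 86 genes. From each list the 3 genes with the highest and the 3 with the lowest ratio among those with at least 200 UMIs were named, beside the members, their chromosomal neighbors, the markers and the 3 genes of nearest pattern among those with at least 500 UMIs. The list genes and members were chosen with earlier results of these data known. Alternatives covered cell limits, doublets, clustering, scaling (with edgeR 4.0.16), thinning, the UMI minimum and the fold, and 2 were added after the data were seen. After the values were seen, 10 sequence patterns were also looked for in RefSeq promoters of the 7 genes, and none is used here. No protein sequences were at hand, so none is used here.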

Additional observations from a re-analysis of the deposited data

How the results depend on the processing

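Among log2 ratios of the 7 genes in macrophage-like cells under alternatives, 87 stayed within the counting interval of the reported value, 50 moved beyond it and 9, of genes whose interval left out 0, had the opposite sign, 7 of these within subclusters where the interval includes 0. Tnfsf10, whose interval includes 0, was above 0 with at most 10% mitochondrial UMIs (0.07) and within subclusters 1, 4 and 6 (0.74, 0.05 and 0.42). Among counts over the gene lists, 82 stayed within 1.5 times and 14 did not. Among values over all tested genes 25 stayed and 21 moved, and among CPM values by class 24 stayed and 18 moved. Over alternatives that give a ratio for the whole class, the difference of mean log-normalized levels left out, the log2 ratio ran from 0.21 to 0.72 for Tnf, 0.65 to 1.21 for Tnfsf9, -0.48 to 0.07 for Tnfsf10, -2.50 to -0.32 for Tnfsf15, -1.49 to -0.93 for Tnfrsf9, -0.20 to 0.28 for Tnfrsf1a and 0.25 to 0.76 for Tnfrsf1b. The cause of the moves was not tested unless given here.

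With a tag share of at least 90% Tnfsf9 was at 1.00, and with at most 10% mitochondrial UMIs it was at 1.15, with 1 response gene past the fold downward. With no doublet removal Tnfrsf1b was at 0.60, 3 signalling genes were past the fold upward, the median of all genes was -0.0396 and 1.95% of genes were past the fold downward. With no scaling, the lower number of UMIs per cell in the telmisartan pool enters each ratio, and its cause was not tested. The ratios were 0.21 for Tnf, 0.65 for Tnfsf9, -1.49 for Tnfrsf9, -0.20 for Tnfrsf1a (reversed) and 0.25 for Tnfrsf1b. Then 1 superfamily gene was past the fold upward and 10 downward, 0 signalling genes upward and 2 downward, and 3 response genes upward. The median of all genes was -0.45, with 1.32% upward and 28.6% downward. The median was -0.0356 with totals without mitochondrial and ribosomal protein genes and -0.0559 with the TMM factor. In cells thinned to 1000 UMIs, Tnfsf9 was at 1.21, Tnfrsf1a at 0.28 and Tnfrsf1b at 0.76, with 8.36% of genes upward and 8.34% downward. With the mean over cells of each cell's share of UMIs, Tnf was at 0.72 and the median at -0.0592, with 5.59% upward and 3.47% downward. As a difference of mean log-normalized levels per cell, the values were 0.31 for Tnf, 0.41 for Tnfsf9, -0.00863 for Tnfsf15, -0.29 for Tnfrsf9, 0.0274 for Tnfrsf1a and 0.32 for Tnfrsf1b. On that scale list counts and values over all genes were not given, since a difference of logs has no fold.

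With no minimum beyond 1 UMI in each pool, 10 superfamily genes were past the fold upward and 8 downward, the median was 0.00970, and 15.7% of genes were upward and 8.54% downward. With at least 500 UMIs the shares were 3.61% and 1.112%. At the lower of the 2 other folds tried 7 superfamily genes were downward and 8 signalling genes upward, with shares of 12.3% and 11.7%. At 2-fold 1 superfamily gene, 0 signalling genes and 3 response genes were upward, with shares of 1.30% and 0.334%.

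Without the shallowest cluster of each class these CPM values moved. In macrophage-like cells without cluster 2 the control values were 110.3 for Tnf, 1.61 for Tnfsf10, 166 for Tnfrsf9 and 113 for Tnfrsf1b, and the telmisartan values 140.1 for Tnf, 208 for Tnfsf9, 1.38 for Tnfsf10, 74.6 for Tnfrsf9 and 166 for Tnfrsf1b. In dendritic-like cells without cluster 9, Tnfsf9 was at 208 and 185 and Tnfrsf9 at 112 and 138 in the control and telmisartan pools. In T-like cells without cluster 8 the control value of Tnfrsf1b was 276, and telmisartan values were 41.8 for Tnf, 25.1 for Tnfsf10, 1480 for Tnfrsf9 and 485 for Tnfrsf1b.

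Within subcluster 1 Tnf was at -0.11, with the opposite sign, while the share of cells with a UMI was higher in the telmisartan pool, as in the whole class. The others were 0.99 for Tnfsf9, 0.74 for Tnfsf10, -3.32 for Tnfsf15, -1.48 for Tnfrsf9, 0.31 for Tnfrsf1a and 0.43 for Tnfrsf1b. Within subcluster 2 Tnfsf15 was at 1.12, Tnfrsf9 was level (0.00437), Tnf was at 1.23 and Tnfrsf1a at 0.10. Within subcluster 3 Tnfsf15 was at 2.31, Tnf at 0.92, Tnfsf9 at 1.35, Tnfsf10 at -1.01 and Tnfrsf9 at -1.34. Within subcluster 4 Tnfsf15 was at 0.64, Tnf at 0.16, Tnfsf9 at 0.88, Tnfrsf9 at -0.43 and Tnfrsf1b at 0.54. Within subcluster 5 Tnfsf15 was at 0.75, Tnfsf9 at 0.38, Tnfrsf9 at -1.35, Tnfrsf1a at 0.0485 and Tnfrsf1b at 0.43. Within subcluster 6 Tnfsf15 was at 2.64, Tnfrsf1b was level (-0.0366), Tnf was at 0.85, Tnfsf9 at 1.17, Tnfrsf9 at -0.47 and Tnfrsf1a at 0.42. The Tnfsf15 values above 0 rest on 1 to 10 UMIs a pool. Weighted by control cells, the means of the subcluster ratios were 0.45 for Tnf, 0.97 for Tnfsf9, -0.32 for Tnfsf15, -0.93 for Tnfrsf9 and 0.45 for Tnfrsf1b. Tnfsf10 had no UMI in the telmisartan pool in subcluster 5, so no ratio there and no weighted mean.

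Both of the following were chosen after seeing the data. Macrophage-like cells without cluster 2 gave 0.35 for Tnf, -1.15 for Tnfrsf9 and 0.56 for Tnfrsf1b. Without cells of 10 or more Tnfsf15 UMIs, Tnfsf15 was at -0.67. Depth limits the ratios of Tnfsf10 and Tnfsf15 and the values in T-like and neutrophil-like cells, where UMIs were few.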

Other observations

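Limits. Each treatment is 1 pool of 5 mice in 1 capture, so the intervals leave out variation between mice. Those of CPM and log2 ratios also leave out variation between cells. The treatment cannot be told apart from anything else that differed between the pools. T-like and neutrophil-like cells were few (186 and 71). The part of RNA from macrophages in the levels of T-like, neutrophil-like and dendritic-like cells was not tested. Control cells were deeper than telmisartan cells in the macrophage-, dendritic- and T-like classes, though not in every cluster. Transcript levels do not give surface or shed protein. The 7 genes were chosen with their levels in these data known.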
